A study of Mus musculus with 12 samples.

Results

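The 37 genes described here are those carried by the mouse mitochondrial genome, taken as every row of the deposited expression table whose gene name starts with mt-, out of 29462 rows in all. They comprise 13 messenger RNA genes, which encode subunits of respiratory complexes I, III, IV and V, 2 ribosomal RNA genes and 22 transfer RNA genes. Their levels were compared between 6 KO and 6 WT libraries of primary aortic smooth muscle cells. The KO cells came from mice lacking the enzyme CSE (cystathionine gamma-lyase, gene Cth) in the whole body, and the WT cells came from C57BL/6J mice. Every culture of both genotypes had been exposed to angiotensin II, a vasoconstrictor peptide hormone, at 1 uM for 24 h, so no unstimulated cells enter the comparison. The sources used here give neither the age and sex of the mice, nor the strain background of the knockout, nor the number of mice or cultures behind a genotype. The p-values below therefore measure spread between libraries that may be technical repeats. The study asked how loss of CSE changes the transcriptome of vascular smooth muscle cells in the setting of abdominal aortic aneurysm.

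The mitochondrial genome is a small circle transcribed from both strands into long precursors that span many genes. In most of these precursors the transfer RNAs lie between the messenger and ribosomal RNAs, and their excision by RNase P and RNase Z releases the RNAs on either side. Most of the messenger RNAs receive short poly(A) tails from the polymerase MTPAP and are held by a complex of LRPPRC and SLIRP. The levels of RNAs cut from a single precursor can differ widely.

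Levels are in FPKM, which scales fragments to the length of the gene and to the sequencing yield of the library. They are relative to the other RNAs of a library. Comparisons between genes are limited here by oligo(dT) selection, by genes shorter than the insert and by reads shared with nuclear copies, described below. Summed FPKM per library ranged between 255538 and 281432, and the depth in reads is unknown. RNA had been selected with oligo(dT), and the transfer RNA genes, with 59 to 75 bases, are shorter than the average insert of 300 bases. Whether their reads came from the transfer RNAs themselves or from longer RNAs that contain them cannot be told apart. In bulk RNA, fewer cells of a type and less RNA per cell cannot be told apart either.

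The libraries differed in several ways beside the genotype. KO replicates 5 and 6 stood apart from the other KO libraries, with Pearson correlations over genes of 0.947 to 0.96 to KO replicates 1 to 4, which correlated at 0.993 to 0.995 among themselves. WT libraries correlated at 0.992 to 0.995 with each other. Cth was near 0 in both genotypes, at 0 to 0.02 FPKM in KO and 0 to 0.08 FPKM in WT libraries, so its level does not check the labels. The 7 smooth muscle markers summed to 86.6 to 168 FPKM in KO and 124 to 152 FPKM in WT libraries, almost all of it Acta2 and Smtn, neither of which was called. The defining markers Myh11, Tagln and Cnn1 lay at 1.32 FPKM or less in every library. At these low levels Tagln (adjusted p = 0.039) and Cnn1 (adjusted p = 0.022) were higher in KO by exact permutation, and Myh11 was not called. The summed epithelial markers reached 40.3 to 59.7 FPKM in KO and 140 to 148 FPKM in WT libraries. Cdh1 and Krt19 made up nearly all of that sum, and both were lower in KO. Epcam, Krt8 and Krt18 were near 0 in both genotypes, with Krt18 higher in KO by exact permutation (adjusted p = 0.022). The summed macrophage markers reached 7.87 to 14 FPKM in KO and 2.09 to 2.84 FPKM in WT libraries, with 2 of 2 tested higher in KO and Ptprc and Adgre1 near 0. Endothelial markers summed to less than 1 FPKM in every library, and fibroblast markers to 396 to 883 FPKM in KO and 540.2 to 571 FPKM in WT libraries. Of the 3 fibroblast markers tested, Pdgfra was higher in KO, at 10.4 ± 3.81 FPKM in KO and 1.08 ± 0.236 FPKM in WT cells (SD, n = 6 each), and Dcn and Col1a1 were not called. The part of these differences in the mitochondrial results was not tested.

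Of the 13 messenger RNA genes, 11 fell in KO cells, none rose, and the test called neither mt-Co2 nor mt-Cytb. A gene was called when limma on log2(FPKM + 1) gave a Benjamini-Hochberg adjusted p of at most 0.05 over all genes tested. Over the 11831 genes tested, 30.9% were called lower and 32.6% higher. The median difference of the 13 genes was -0.36 on the log2(FPKM + 1) scale, while the median over all genes tested was 0.0087, with quartiles of -0.30 and 0.34. In 8 of the 13, each KO library lay below each WT library, against 22.5% of all genes tested. All 11 calls held under median-ratio scaling, TPM rescaling and scaling on rows other than mt-. For mt-Co1, the weakest of them, limma gave adjusted p of 0.015, 0.02 and 0.012. The calls did not all hold under quantile normalization. That method gives every library the same set of values, so a gene of the same rank in every library cannot differ. Under quantile normalization mt-Nd2, mt-Nd3, mt-Nd4l, mt-Co3 and mt-Atp6 were lower, mt-Co2 and mt-Cytb were higher, and mt-Nd1, mt-Nd4, mt-Nd5, mt-Nd6, mt-Co1 and mt-Atp8 were not called, with mt-Nd5 turning upward (0.11). The plot of FPKM by library shows all 13 with the ribosomal RNAs.

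**Figure D1:**
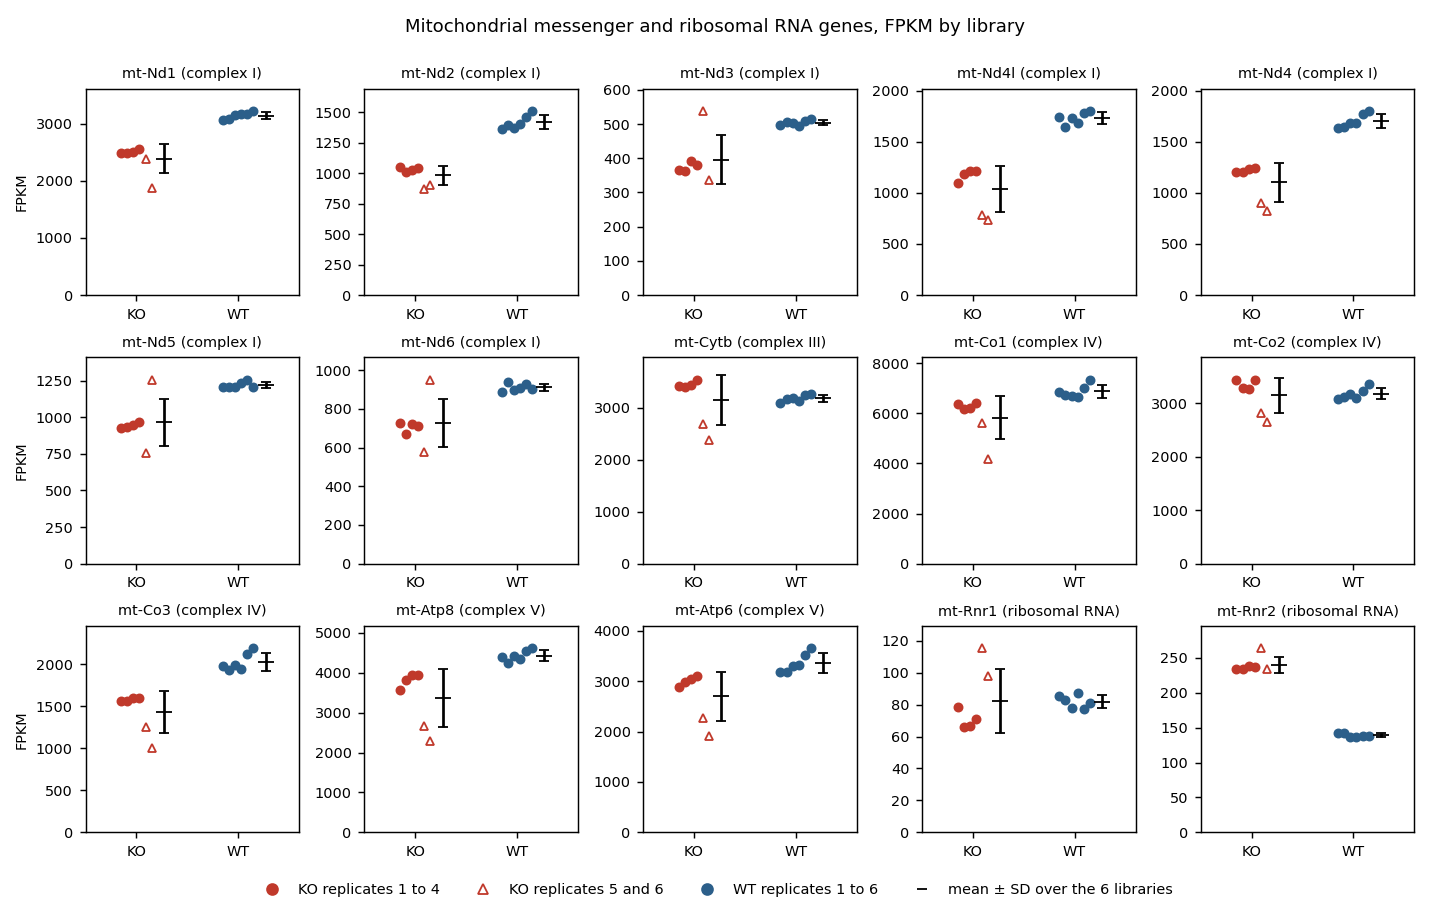
FPKM of the 13 mitochondrial messenger RNA genes and 2 ribosomal RNA genes in each library, KO on the left and WT on the right of every panel, with the mean and SD over 6 libraries beside the points and linear axes that start at 0. KO replicates 5 and 6 are drawn as open triangles, and they lie below the other KO libraries in 10 of the 13 messenger panels. For mt-Rnr2 all KO libraries, at 233.48 FPKM or more, lie above all WT libraries, at 142.79 FPKM or less.

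Complex I, the NADH dehydrogenase that feeds electrons into the respiratory chain, takes 7 of its subunits from the mitochondrial genome, and all 7 of their messenger RNAs were lower in KO cells in the limma test, while under quantile normalization 4 of the 7 lost their calls (mt-Nd1, mt-Nd4, mt-Nd5 and mt-Nd6) and mt-Nd5 turned upward. Their median difference was -0.41. The ND1 subunit lies where the membrane arm meets the quinone site. Its messenger mt-Nd1 measured 1871.48, 2487 and 2561.69 FPKM (lowest, median and highest) in KO libraries, against 3059.77, 3158 and 3220.74 FPKM in WT libraries. The genotypes did not overlap, and KO replicate 6 was far below the other KO libraries. The difference was -0.41 (SE 0.07, adjusted p = 0.00022), a ratio of mean FPKM of 0.759, and under quantile normalization it was -0.11 (adjusted p = 0.18). mt-Nd2, whose product is one of the proton-pumping membrane subunits, measured 867.26, 1016 and 1049.57 FPKM in KO against 1365.03, 1398 and 1511.92 FPKM in WT libraries. Again all KO values were below all WT values, with a difference of -0.53 (SE 0.058, adjusted p = 3.2e-06) that was -0.17 under quantile normalization (adjusted p = 0.00039).

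The pair mt-Nd4l and mt-Nd4, which encode 2 membrane subunits on one bicistronic messenger, had the largest differences of the 13 on the log2 scale without further scaling. The end of mt-Nd4l and the start of mt-Nd4 are shown because they share their last and first 7 bases, in capitals, so that both genes are read from one RNA. The sequences are those of GENCODE M21 transcripts on GRCm38, plus strand, chrM:9877-10173 for mt-Nd4l and chrM:10167-11544 for mt-Nd4.
mt-Nd4l, last bases: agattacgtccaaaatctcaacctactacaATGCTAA
mt-Nd4, first bases: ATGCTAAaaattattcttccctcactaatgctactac
mt-Nd4l measured 732.31, 1137 and 1218.59 FPKM in KO against 1648.53, 1735 and 1801.58 FPKM in WT libraries, a difference of -0.77 (SE 0.12, adjusted p = 0.00012). For mt-Nd4 the values were 824.54, 1206 and 1243.47 FPKM in KO against 1633.63, 1683 and 1800.81 FPKM in WT libraries, a difference of -0.65 (SE 0.1, adjusted p = 9.9e-05). In both genes all KO libraries were below all WT libraries, and KO replicates 5 and 6 were lower than the other KO libraries. Under quantile normalization the differences were -0.36 for mt-Nd4l (adjusted p = 0.0063) and -0.14 for mt-Nd4, which was then not called (adjusted p = 0.14) and lay behind those of 5 other messengers. Within a library the ratio of mt-Nd4l to mt-Nd4 was 0.873 to 0.983 in KO and 1 to 1.07 in WT cells, and these ranges did not overlap.

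The remaining complex I messengers, mt-Nd3, mt-Nd5 and mt-Nd6, were lower in KO cells in the test but not in every library. mt-Nd3, for a small subunit of the hinge region next to the quinone site, measured 337.34, 373 and 538.28 FPKM in KO against 493.36, 505 and 514.35 FPKM in WT libraries (difference -0.36, SE 0.092, adjusted p = 0.0036). KO replicate 5 exceeded all WT libraries, and the other KO libraries were below them. mt-Nd5, for the largest membrane subunit, measured 756.44, 942 and 1256.8 FPKM in KO against 1205.69, 1208 and 1255.97 FPKM in WT libraries (difference -0.35, SE 0.091, adjusted p = 0.004). mt-Nd6 measured 577.35, 718 and 950.87 FPKM in KO against 887.36, 906 and 939.78 FPKM in WT libraries (difference -0.34, SE 0.091, adjusted p = 0.0051). For mt-Nd5 and mt-Nd6 it was KO replicate 6 that exceeded all WT libraries, while the other 5 KO libraries were below them. Without KO replicates 5 and 6 all 3 genes were lower in every KO library, with differences of -0.43, -0.37 and -0.36, and in an exact rank-sum test over 12 libraries the 3 did not pass (adjusted p = 0.094 each). Under quantile normalization mt-Nd3 passed (-0.32, adjusted p = 0.0018), and mt-Nd5 (0.11, adjusted p = 0.44) and mt-Nd6 (-0.06, adjusted p = 0.67) did not.

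mt-Nd6 is the single messenger encoded on the minus strand, and it overlaps the end of mt-Nd5 by 14 bases in the opposite orientation. The ratio of mt-Nd6 to mt-Nd5 was 0.718 to 0.785 in KO and 0.736 to 0.778 in WT libraries, and it was 0.757 in KO replicate 6, where both were high. The libraries mark strand, but the sources used here do not say whether the counting used it. If it did not, reads of the opposite strand would count toward a gene over its whole length, not in the overlap alone. Reads of the 2 strands therefore cannot be told apart for mt-Nd6, nor for the transfer RNA genes of the minus strand. KO replicate 6 was the highest KO library for each of the 6 genes that follow one another from mt-Th to mt-Te, a stretch that holds mt-Nd5 and mt-Nd6. It was the lowest KO library for 17 of the 37 genes, among them mt-Nd4 just before that stretch and mt-Cytb just after it.

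Complex III, the cytochrome bc1 complex, has a single mitochondrially encoded subunit, cytochrome b, and its messenger mt-Cytb did not pass the test. It measured 2375.49, 3399.8 and 3537.24 FPKM in KO against 3091.99, 3170.3 and 3266.48 FPKM in WT libraries, a difference of -0.03 (SE 0.092, adjusted p = 0.78). The KO libraries lay on both sides of the WT libraries, with replicates 1 to 4 above all of them, between 3386.3 and 3537.24 FPKM, and replicates 5 and 6 below all of them. With KO replicates 1 to 4 alone the difference was 0.12 and passed the test as higher (adjusted p = 0.0015). The ratio of mt-Nd4 to mt-Cytb, by contrast, separated the genotypes in every library, at 0.335 to 0.359 in KO and 0.522 to 0.551 in WT cells, and KO replicates 5 and 6 were just below the range of the other KO libraries.

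Complex IV, cytochrome c oxidase, has its 3 core subunits encoded by mt-Co1, mt-Co2 and mt-Co3, and 2 of these messengers fell in KO cells. mt-Co1, for the subunit that holds the oxygen-reducing centre, had the highest level of all 37 genes in both genotypes, with 4186.69, 6182 and 6414.59 FPKM in KO against 6659.98, 6783 and 7343.8 FPKM in WT libraries. All KO libraries were below all WT libraries, most of all replicate 6. The difference of -0.25 (SE 0.093, adjusted p = 0.029) passed the test narrowly. It was 0 under quantile normalization, where a gene of the same rank in every library cannot differ. The difference did not pass without WT replicate 5 (adjusted p = 0.053) or WT replicate 6 (adjusted p = 0.061). Without KO replicate 6 it was -0.16 (adjusted p = 0.011), and with KO replicates 1 to 4 alone -0.13 (adjusted p = 0.0037). mt-Co3 measured 998.87, 1563 and 1601.6 FPKM in KO against 1934.83, 1981 and 2189.67 FPKM in WT libraries, again without overlap (difference -0.52, SE 0.11, adjusted p = 0.00092, and -0.34 under quantile normalization). mt-Co2, for the subunit that takes up electrons from cytochrome c, measured 2652.52, 3274 and 3442.24 FPKM in KO against 3077.61, 3141 and 3355.82 FPKM in WT libraries (difference -0.02, SE 0.068, adjusted p = 0.82). For mt-Co2, KO replicates 1 and 4 lay above all WT libraries, replicates 2 and 3 within the WT range, and replicates 5 and 6 below it. With KO replicates 1 to 4 alone its difference was 0.08 (adjusted p = 0.037). The ratio of mt-Co2 to mt-Co1 was 0.499 to 0.634 in KO and 0.449 to 0.474 in WT libraries, higher in each KO library than in any WT library.

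Complex V, the ATP synthase, takes 2 subunits of its proton channel sector from mt-Atp8 and mt-Atp6, and both messengers fell. The genes share 43 bases, which are printed in capitals at the end of the first and the start of the second to show that reads over this stretch belong to both. They lie on the plus strand at chrM:7766-7969 and chrM:7927-8607 of GRCm38 in GENCODE M21.
mt-Atp8, last bases: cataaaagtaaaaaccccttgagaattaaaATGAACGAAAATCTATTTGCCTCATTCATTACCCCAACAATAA
mt-Atp6, first bases: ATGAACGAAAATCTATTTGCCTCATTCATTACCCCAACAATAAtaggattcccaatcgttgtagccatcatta
mt-Atp8 measured 2277.34, 3689.5 and 3943.04 FPKM in KO against 4232.67, 4414 and 4610.69 FPKM in WT libraries (difference -0.42, SE 0.13, adjusted p = 0.0097). mt-Atp6 measured 1915.53, 2938 and 3112.54 FPKM in KO against 3188.2, 3306 and 3654.85 FPKM in WT libraries (difference -0.34, SE 0.11, adjusted p = 0.018). The genotypes overlapped in neither gene, and the highest KO value of mt-Atp6 lay just below its lowest WT value. KO replicates 5 and 6 were again the lowest, and with replicates 1 to 4 alone the differences were -0.22 for mt-Atp8 and -0.16 for mt-Atp6, both past the test. Under quantile normalization mt-Atp8 was at -0.10 and did not pass (adjusted p = 0.16), while mt-Atp6 was at -0.22 (adjusted p = 0.025). Without a filter on low genes mt-Atp8 (adjusted p = 0.1) and mt-Atp6 (adjusted p = 0.14) did not pass. The ratio of mt-Atp8 to mt-Atp6 was 1.18 to 1.29 in KO and 1.26 to 1.38 in WT libraries, with overlap.

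The spread of the messengers among KO libraries lay mainly between replicates 1 to 4 and replicates 5 and 6. The coefficient of variation over libraries had a median of 16.9% over the 13 genes in KO, 2.02% in KO replicates 1 to 4 and 3.31% in WT cells. KO replicates 5 and 6 were the 2 lowest KO libraries for 10 of the 13 genes, and WT replicates 5 and 6 were the 2 highest WT libraries for 11 of the 13. With KO replicates 1 to 4 alone, 13 of 13 messengers passed the test, 11 of them lower and mt-Co2 and mt-Cytb higher. In that comparison 37.1% of all genes tested were lower and 39.9% higher. This alternative was chosen after seeing the data.

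Together the messengers made up a smaller share of KO than of WT libraries. They were 9.53% to 12.6% of the summed FPKM of protein-coding genes in KO and 13.9% to 14.8% in WT libraries, with means of 11.4% ± 1.29 in KO and 14.3% ± 0.315 in WT (SD, n = 6 each). KO replicates 1 to 4 ranged between 12% and 12.6%, so the ranges stayed apart with and without the 2 divergent libraries. All 37 genes made up 8.81% to 11.5% of summed FPKM in KO and 12.4% to 13.1% in WT libraries.

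The make-up of the messenger pool differed as well, as the plot of shares within the 13 messengers shows. mt-Cytb was 11.2% to 11.7% of the summed messenger FPKM in KO and 9.23% to 9.63% in WT libraries. mt-Co2 was 11.1% to 12.5% in KO and 9.33% to 9.52% in WT libraries. Both shares were higher in every KO library, replicates 5 and 6 included. In the opposite direction, mt-Nd4l was 3.26% to 4.11% in KO and 5.03% to 5.28% in WT libraries, mt-Nd4 3.74% to 4.18% in KO and 4.95% to 5.13% in WT libraries, and mt-Co3 4.69% to 5.43% in KO and 5.89% to 6.19% in WT libraries. For the other 8 messengers the ranges overlapped. By complex, the single complex III messenger and the 3 of complex IV took higher shares in every KO library, with complex IV at 36.8% to 40.1% in KO and 35.4% to 36.4% in WT libraries. Complex I messengers took 26.9% to 32.3% in KO and 31% to 32% in WT libraries, where the overlap came from KO replicate 6 alone, since KO replicates 1 to 4 had 26.9% to 27.2% and replicate 5 had 28.2%. Nuclear copies of 7 of the 13 messengers, described below, hold reads that may belong to these messengers. The messenger shares in this and the previous paragraph, and the ratios between messengers, leave those reads out and are uncertain to that extent. All of these shares are descriptions and were not tested.

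**Figure D2:**
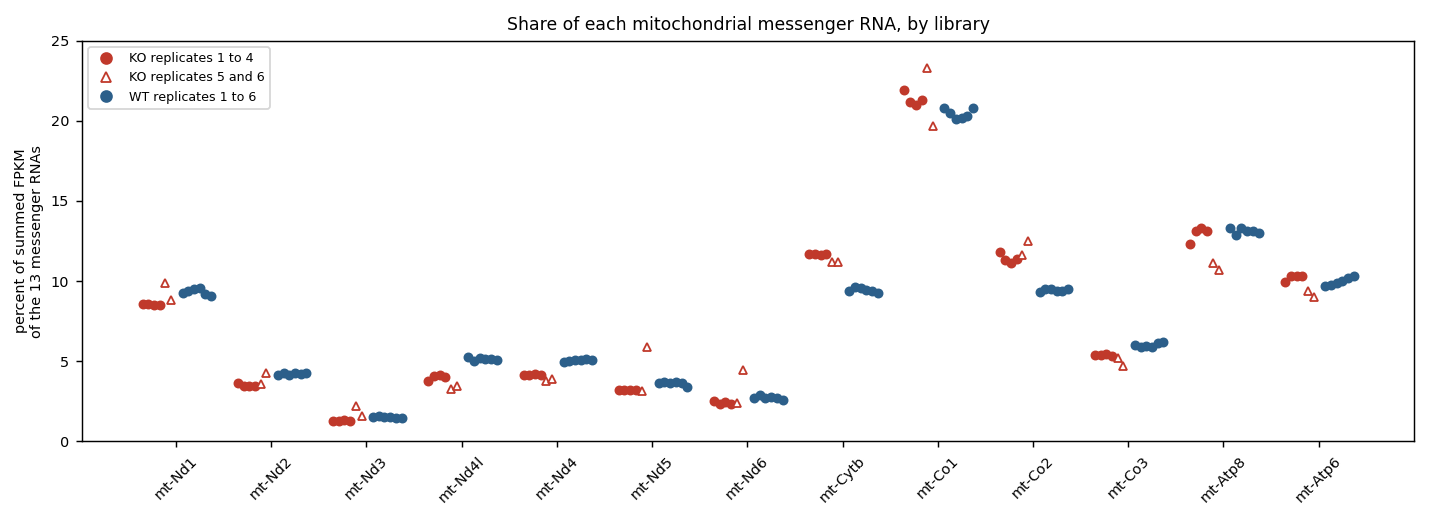
Share of each mitochondrial messenger RNA in the summed FPKM of all 13, in percent on a linear axis from 0, with KO libraries left of WT libraries for each gene and KO replicates 5 and 6 as open triangles. mt-Cytb and mt-Co2 sit higher in every KO library, and mt-Nd4l, mt-Nd4 and mt-Co3 lower. KO replicate 6 stands out for mt-Nd5, at 5.9%, and mt-Nd6, at 4.47%.

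The ribosomal RNAs, which form the small (mt-Rnr1) and large (mt-Rnr2) subunits of the mitochondrial ribosome, went apart. mt-Rnr2 rose to 233.48, 236 and 263.75 FPKM in KO libraries, against 136.24, 138 and 142.79 FPKM in WT libraries. Every KO library was above every WT library, as in 23.8% of all genes tested, and KO replicate 5 was the highest. The mean was 240.3 ± 11.6 FPKM in KO and 139 ± 2.86 FPKM in WT cells (SD, n = 6 each), a ratio of 1.73, with a difference of 0.78 on the log2 scale (SE 0.044, adjusted p = 4.8e-09). Under all alternatives tried the difference was between 0.76 and 0.82. mt-Rnr1 did not pass the test, at 65.71, 74.8 and 115.26 FPKM in KO against 77.06, 81.9 and 86.96 FPKM in WT libraries (difference -0.02, SE 0.12, adjusted p = 0.9). KO replicates 5 and 6 were above all WT libraries for mt-Rnr1, and 3 of the other 4 KO libraries were below all of them. With KO replicates 1 to 4 alone mt-Rnr1 was lower in KO (difference -0.22, adjusted p = 0.0022). The ratio of mt-Rnr2 to mt-Rnr1 was 2.29 to 3.59 in KO and 1.57 to 1.79 in WT libraries, without overlap.

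mt-Rnr2 and mt-Nd1 lie next to each other on the plus strand, parted by mt-Tl1 alone, and moved in opposite directions. Their ratio was 0.0925 to 0.125 in KO and 0.043 to 0.0467 in WT libraries, and its mean in KO was 2.3 times that in WT. Both ribosomal RNAs were low beside the messengers in this oligo(dT)-selected RNA, with a sum of 300.2 to 379 FPKM in KO and 214 to 228 FPKM in WT libraries. How much of each RNA carried a poly(A) tail was not measured, so a change in abundance and a change in capture cannot be told apart.

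Of the 22 transfer RNA genes, 19 reached the level needed for the test. Of these 4 were higher in KO cells (mt-Tq, mt-Tm, mt-Tw and mt-Tt), 4 were lower (mt-Tl2, mt-Te, mt-Tp and mt-Ts1) and 11 did not pass, with a median difference of 0.09, where 32.6% of all genes tested were higher and 30.9% lower. Their levels spanned a wide range, from means under 1 FPKM to 361 ± 49 FPKM in KO and 331 ± 10.9 FPKM in WT cells for mt-Tl1 (SD, n = 6 each), the leucine transfer RNA between mt-Rnr2 and mt-Nd1. The plot of differences in genome order shows each of them beside its neighbours. On the minus strand, 1 of 8 tested transfer RNA genes was higher and 3 were lower, and on the plus strand 3 of 11 were higher and 1 was lower. These counts go by the annotated strand of the gene, since strand use in counting is not given.

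**Figure D3:**
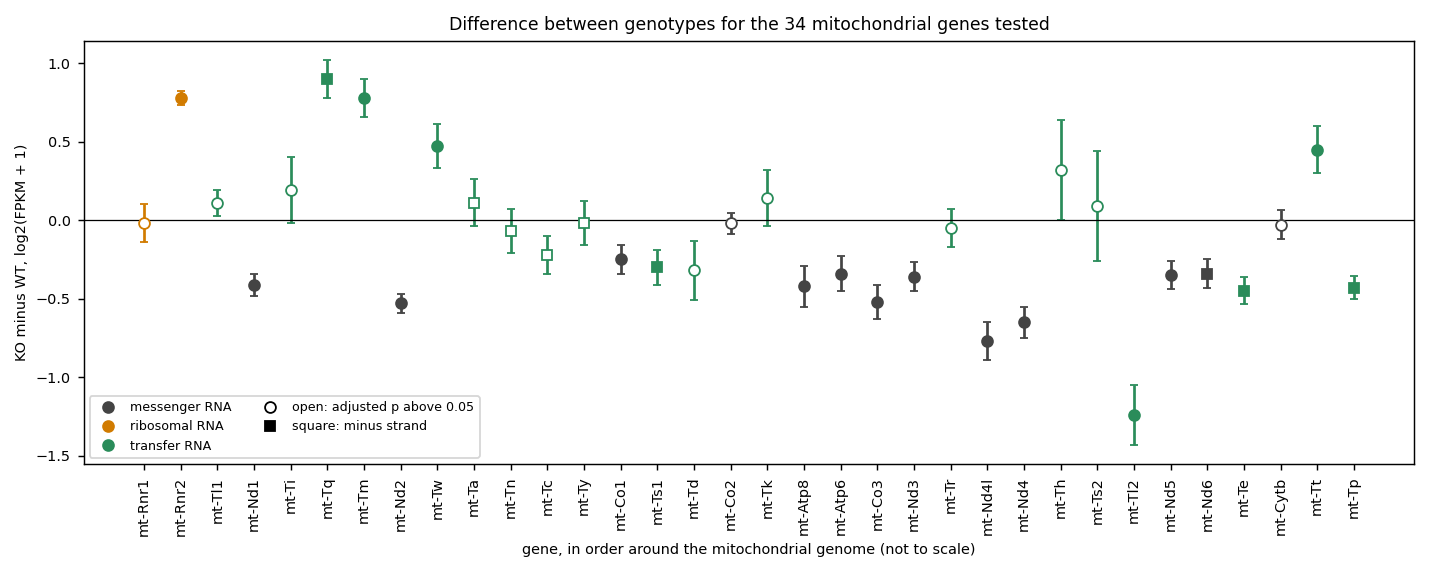
Difference of KO minus WT in log2(FPKM + 1), with the SE, for the 34 mitochondrial genes tested, in their order around the genome. Circles are plus-strand and squares minus-strand genes, and open symbols did not pass an adjusted p of 0.05. Messenger RNAs lie at or below 0, mt-Rnr2 at 0.78, and transfer RNAs between -1.24 for mt-Tl2 and 0.90 for mt-Tq. Under quantile normalization mt-Co2, mt-Cytb and mt-Nd5 lie above 0.

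The transfer RNA genes with the largest differences are printed whole, 5′ to 3′ on their own strand, from GENCODE M21 on GRCm38, together with mt-Tl1, since the 2 leucine transfer RNA genes behaved differently. The genes lie at chrM:11671-11741 (mt-Tl2, plus strand), chrM:2676-2750 (mt-Tl1, plus strand), chrM:3772-3842 (mt-Tq, minus strand) and chrM:3845-3913 (mt-Tm, plus strand).
mt-Tl2: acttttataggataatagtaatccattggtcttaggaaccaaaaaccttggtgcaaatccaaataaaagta
mt-Tl1: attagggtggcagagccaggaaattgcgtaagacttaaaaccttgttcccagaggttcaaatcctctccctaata
mt-Tq: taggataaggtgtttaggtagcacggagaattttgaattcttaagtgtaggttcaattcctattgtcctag
mt-Tm: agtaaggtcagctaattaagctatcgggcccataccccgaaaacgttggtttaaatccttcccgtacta
mt-Tl2, the leucine transfer RNA gene just before mt-Nd5, fell to 5.37, 13.7 and 15.16 FPKM in KO libraries, against 26.31, 28.5 and 36.2 FPKM in WT libraries (difference -1.24, SE 0.19, adjusted p = 8.4e-05). All KO libraries were below all WT libraries, and replicate 5 was the lowest. In the authors' deposited table it was the single mitochondrial gene of 37 marked as significant, with a ratio of WT over KO of 2.38. The authors' q-value was nevertheless at most 0.05 for 19 of the 37 genes, 11 of them messengers. The mark therefore did not follow from the q-value alone. mt-Tl1 measured 275.52, 389 and 393.56 FPKM in KO against 315.01, 333 and 345.09 FPKM in WT libraries (difference 0.11, SE 0.085, adjusted p = 0.26). KO replicates 1 to 4 were above all WT libraries for mt-Tl1, replicate 6 was below all of them, and without replicates 5 and 6 the gene was higher in KO (difference 0.24, adjusted p = 5.2e-06).

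mt-Tq, for glutamine, and mt-Tm, for methionine, are neighbours on opposite strands between mt-Nd1 and mt-Nd2. mt-Tq measured 8.85, 10.2 and 11.49 FPKM in KO against 4.23, 4.46 and 6.98 FPKM in WT libraries, and all KO libraries were higher (difference 0.90, SE 0.12, adjusted p = 1.8e-05). mt-Tm measured 19.16, 29.5 and 33.02 FPKM in KO against 13.9, 15.7 and 19.55 FPKM in WT libraries (difference 0.78, SE 0.12, adjusted p = 9.7e-05). KO replicate 5 lay within the WT range for mt-Tm, and the other KO libraries were above it. Both rose while the messengers on either side, mt-Nd1 and mt-Nd2, fell. mt-Tw, for tryptophan, directly after mt-Nd2, averaged 27.3 ± 5.28 FPKM in KO and 19.3 ± 3.39 FPKM in WT cells (difference 0.47, adjusted p = 0.0089), and mt-Tt, for threonine, directly after mt-Cytb, averaged 14.5 ± 3.48 FPKM in KO and 10.3 ± 2.24 FPKM in WT cells (difference 0.45, adjusted p = 0.018; SD, n = 6 each). The KO and WT libraries overlapped in both.

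Among the transfer RNA genes that fell, mt-Te, for glutamate, is transcribed from the minus strand together with mt-Nd6, and mt-Tp, for proline, is the gene furthest upstream on that strand. mt-Te measured 89.86, 99.2 and 130.06 FPKM in KO against 128.04, 138 and 156.02 FPKM in WT libraries (difference -0.45, SE 0.086, adjusted p = 0.00049), with KO replicate 6 inside the WT range. mt-Tp measured 74.73, 81.5 and 95.02 FPKM in KO against 100.88, 112 and 122.59 FPKM in WT libraries, without overlap (difference -0.43, SE 0.072, adjusted p = 0.00016). For mt-Tp, KO replicates 5 and 6 were the highest KO libraries, unlike for most messengers. mt-Ts1, for serine, lies on the minus strand and overlaps the end of mt-Co1 by 3 bases. Its level was 198.12, 319 and 326.53 FPKM in KO against 344.62, 349 and 391.88 FPKM in WT libraries (difference -0.30, SE 0.11, adjusted p = 0.028), and it did not pass under quantile normalization (adjusted p = 0.054) or without WT replicate 5 or 6 (adjusted p = 0.053 and 0.06). Without KO replicate 6 the difference was -0.19 (adjusted p = 0.006), and with KO replicates 1 to 4 alone -0.15 (adjusted p = 0.0026). The ratio of mt-Ts1 to mt-Co1 was nearly constant, at 0.0473 to 0.0526 in KO and 0.0512 to 0.0534 in WT libraries. As strand use in counting is not given, reads of mt-Co1 running into mt-Ts1 cannot be told apart from its own.

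The 11 transfer RNA genes that were tested and did not pass were mt-Tl1, mt-Ta, mt-Tn, mt-Tc, mt-Ty, mt-Tk, mt-Th, mt-Ts2, mt-Ti, mt-Td and mt-Tr. mt-Ta, for alanine, and mt-Tn, for asparagine, are neighbours on the minus strand. mt-Ta averaged 36.4 ± 7.91 FPKM in KO and 33.1 ± 3.4 FPKM in WT cells, and mt-Tn 30.4 ± 6.9 FPKM in KO and 31.1 ± 2.76 FPKM in WT cells (SD, n = 6 each). In both genes KO replicate 6 was the lowest of all 12 libraries. mt-Tc, for cysteine, averaged 17.7 ± 3.43 FPKM in KO and 20.7 ± 2.99 FPKM in WT cells, and mt-Ty, for tyrosine, 11.3 ± 2.09 FPKM in KO and 11.5 ± 2.5 FPKM in WT cells. The histidine gene mt-Th averaged 5.47 ± 3.11 FPKM in KO and 3.92 ± 1.55 FPKM in WT cells, and its neighbour mt-Ts2, for serine, 4.65 ± 3.5 FPKM in KO and 3.72 ± 1.23 FPKM in WT cells. Their highest values, 10.91 and 11.06 FPKM, were those of KO replicate 6. mt-Tk, for lysine, averaged 6.2 ± 1.88 FPKM in KO and 5.36 ± 0.866 FPKM in WT cells, and mt-Ti, for isoleucine, 4.32 ± 1.61 FPKM in KO and 3.48 ± 0.592 FPKM in WT cells. mt-Tr, for arginine, and mt-Td, for aspartate, averaged 1.02 ± 0.285 and 0.947 ± 0.635 FPKM in KO, against 1.09 ± 0.352 and 1.34 ± 0.251 FPKM in WT cells. That these 11 did not pass does not show that the genotypes are alike. Leaving out a single KO library brought 6 of the 11 past the test, with the library picked for each gene after seeing the values. Of the 11831 genes tested, 7515 passed in the full comparison. Without KO replicate 5 or 6, 7769 and 8105 passed, and without KO replicate 1 or 3, 7280 and 7334. The 6 are therefore not a result about these genes. Without replicate 6, mt-Tl1 (0.19) and mt-Ta (0.25) were higher in KO, and without replicate 5, mt-Tk (0.31) was higher and mt-Tc (-0.30) lower. Without replicate 1, mt-Ti was higher (0.39), and without replicate 3, mt-Td was lower (-0.45).

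3 transfer RNA genes were below the level needed for the limma test and were instead compared by exact permutation, two-sided, over the 924 ways to divide the libraries 6 and 6. mt-Tv, for valine, averaged 0.91 ± 0.238 FPKM in KO and 0.532 ± 0.284 FPKM in WT cells, with an exact p of 0.0368 that did not pass adjustment over the 17229 low genes (adjusted p = 0.19). mt-Tf, for phenylalanine, measured 0.16 to 0.88 FPKM in KO and 0.23 to 1.66 FPKM in WT libraries (exact permutation p = 0.476), and mt-Tg, for glycine, 0.44 ± 0.391 FPKM in KO and 0.655 ± 0.592 FPKM in WT cells (exact permutation p = 0.491; SD, n = 6 each). Of all genes examined by this test, 11% passed adjustment.

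Counting all classes, 20 of the 34 tested mitochondrial genes passed, 5 of them higher and 15 lower in KO, where 63.5% of all genes tested passed. The share that passed is close to that of the whole table and is not a result about these genes.

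Nuclear copies of mitochondrial DNA limit how these values can be read. Transcripts of the reference were matched to those of the 37 genes, and 11 nuclear pseudogenes with at least 95% identity over at least 100 bases were found for 9 of them. Of these, 7 lie side by side on the minus strand of chromosome 1, at chr1:24611535-24616197 of GRCm38, and match mt-Atp6, mt-Co1, mt-Co2, mt-Co3, mt-Nd3, mt-Nd4 and mt-Nd4l. Their values followed those of their mitochondrial counterparts library by library, as the plot of copies against their genes shows. For the 5 copies that span the whole gene the ratio of copy to gene was 0.988 to 1.08 in every library, while for Gm29216, which matches part of mt-Co1, and Gm28439, which matches part of mt-Nd4, it was 0.258 to 0.287 and 0.71 to 0.74. The 7 copies held 3.3% to 4.57% of the summed FPKM in KO and 4.99% to 5.38% in WT libraries. Transfer RNA genes, with 59 to 75 bases, are shorter than the 100 bases required, so the search could not find copies of them. Their values may share reads with copies too. mt-Ts1 and mt-Td, for example, lie between mt-Co1 and mt-Co2, whose copies are neighbours on chromosome 1.

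**Figure D4:**
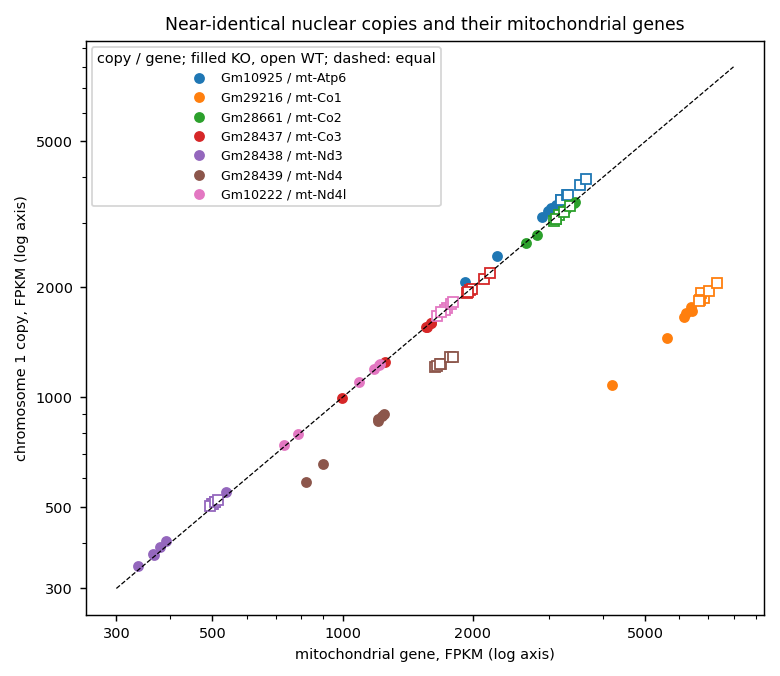
FPKM of the 7 chromosome 1 pseudogenes against FPKM of the mitochondrial gene each one matches, both on log axes, one point for each library, filled for KO and open for WT. The dashed line marks equal values, on or near which the copies that span a whole gene lie. The points of Gm28439 and Gm29216, which match part of a gene, lie below it.

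4 of the 5 whole-gene copies have no mismatch to their gene. Gm28438 differs from mt-Nd3 at 1 of 345 aligned bases, T3C counted from the first base of the mitochondrial gene, and the first bases of both are shown with that position in capitals, from chrM:9459-9806 (plus strand) and chr1:24612775-24613119 (minus strand).
mt-Nd3, first bases: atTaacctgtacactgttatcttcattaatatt
Gm28438, first bases: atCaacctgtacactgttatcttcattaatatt
Reads of such sequences cannot be assigned to one place, so the levels of these 7 messengers are uncertain by the amount their copies hold, and the sources used here do not say how the authors' counting split them. For the other 6 messengers the search found no such copy at a like level among annotated transcripts. mt-Atp8 is less certain, since its last 43 bases are also the first of mt-Atp6, which Gm10925 matches over 678 of 681 bases. The gene lies between mt-Co2 and mt-Atp6, whose copies are neighbours on chromosome 1, and the stretch between these copies was not searched. Of these 6 messengers, 5 fell (mt-Nd1, mt-Nd2, mt-Atp8, mt-Nd5 and mt-Nd6), and of the 7 with a copy 6 fell. The other 4 pseudogenes were low, below 11 FPKM in every library.

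The nuclear genes that act on the mitochondrial genome were counted in the same fit, again beside 32.6% higher and 30.9% lower among all genes tested. For transcription of the mitochondrial genome, 7 genes could be tested, of which 1 rose and 1 fell. The RNA polymerase Polrmt measured 5.38, 6.38 and 10.08 FPKM in KO against 5.68, 6.31 and 6.63 FPKM in WT libraries (difference 0.10, adjusted p = 0.46). Tfam, which packages the DNA and opens its promoters, measured 7.67, 8.73 and 10.96 FPKM in KO against 7.62, 8.34 and 8.97 FPKM in WT libraries (difference 0.08, adjusted p = 0.39). Neither passed, and in both genes the highest value was that of KO replicate 5 or 6. Tfb2m, the initiation factor, fell to 5.06, 8.96 and 10.98 FPKM in KO libraries, against 12.2, 13.2 and 13.92 FPKM in WT libraries, without overlap (difference -0.59, SE 0.13, adjusted p = 0.0012). Mterf3, described in mouse as a repressor of mitochondrial transcription, rose to 2.72, 3.4 and 3.69 FPKM in KO against 1.85, 2.02 and 2.53 FPKM in WT libraries (difference 0.49, SE 0.071, adjusted p = 3.9e-05).

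Among 14 genes for the stability, tailing and decay of mitochondrial RNA, 6 rose and 4 fell. Lrpprc, which binds the mitochondrial messengers and keeps them from decay, measured 6.37, 6.67 and 6.93 FPKM in KO against 9.92, 10.7 and 11.12 FPKM in WT libraries (difference -0.60, SE 0.045, adjusted p = 7.3e-08). All KO libraries were below all WT libraries, and replicates 5 and 6 lay close to the other KO libraries. Its partner Slirp did not pass, at 5.06, 7.79 and 11.99 FPKM in KO against 6.54, 7.73 and 9.43 FPKM in WT libraries (difference 0.02, adjusted p = 0.92). Mtpap, the poly(A) polymerase, measured 2.9, 3.54 and 4.18 FPKM in KO against 4.51, 4.86 and 5.15 FPKM in WT libraries (difference -0.36, SE 0.068, adjusted p = 0.00039). Of 6 members of the FASTK family of mitochondrial RNA-binding proteins, 3 rose, 2 fell and Fastk itself was not called (-0.02, adjusted p = 0.84). Fastkd2 (-0.60, adjusted p = 1.3e-05) and Fastkd1 (-0.50, adjusted p = 1.5e-05) fell, and Fastkd3 (0.48, adjusted p = 0.00015), Fastkd5 (0.32, adjusted p = 0.0013) and Tbrg4 (0.45, adjusted p = 0.047) rose. Fastkd2, whose human counterpart binds the large-subunit ribosomal RNA, measured 1.44 to 2.53 FPKM in KO and 3.38 to 3.79 FPKM in WT libraries.

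Among 16 genes for cutting and modifying mitochondrial RNA, 4 rose and 8 fell. Trmt61b, a methyltransferase of mitochondrial transfer and ribosomal RNA, measured 0.47, 0.555 and 0.6 FPKM in KO against 1.29, 1.52 and 1.77 FPKM in WT libraries (difference -0.71, SE 0.059, adjusted p = 2.1e-07). Tfb1m, which dimethylates the small-subunit ribosomal RNA mt-Rnr1, measured 0.68, 0.89 and 1.02 FPKM in KO against 1.72, 2 and 2.25 FPKM in WT libraries (difference -0.68, SE 0.061, adjusted p = 4.6e-07). Both groups were apart in both genes. Mrm2, which methylates the large-subunit ribosomal RNA mt-Rnr2, rose (difference 0.47, SE 0.082, adjusted p = 0.00021), with 3.7 to 5.82 FPKM in KO and 2.74 to 3.42 FPKM in WT libraries. Pus1, a pseudouridine synthase of transfer RNA, rose as well (difference 0.53, adjusted p = 0.0012).

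Of 18 genes for replication and upkeep of the mitochondrial DNA, 2 rose, 6 fell and 10 did not pass. The accessory polymerase subunit Polg2 (-0.57, adjusted p = 5e-06) and the single-strand binding protein Ssbp1 (-0.32, adjusted p = 0.0002) fell, and the mitochondrial topoisomerase Top1mt (0.41, adjusted p = 0.0013) and Sucla2, a succinyl-CoA ligase subunit (0.23, adjusted p = 0.0095), rose. The amount of mitochondrial DNA was not measured. Of 5 regulators of mitochondrial biogenesis that could be tested, the nuclear receptor Esrra (0.77, adjusted p = 0.00026) and Nrf1 (0.22, adjusted p = 0.033) rose and Gabpa (-0.27, adjusted p = 0.013) fell. The coactivators Ppargc1a, at 0.02 to 0.1 FPKM in KO and listed at 0 in WT libraries, and Ppargc1b, at 0.08 to 0.32 FPKM in KO and 0.01 to 0.07 FPKM in WT libraries, were below the level for that test and were higher in KO by exact permutation (adjusted p = 0.022 each). Among 14 general mitochondrial proteins, 3 rose and 6 fell. The outer-membrane import receptor Tomm22 (0.90, adjusted p = 2.2e-07) and citrate synthase Cs (0.44, adjusted p = 1.6e-05) were higher, and the channel protein Vdac2 (-0.29, adjusted p = 0.00072) and the import receptor Tomm20 (-0.41, adjusted p = 0.00098) were lower.

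The nuclear subunits of the same complexes were counted beside the mitochondrial ones, and the plot of differences by list shows both. Of 76 tested nuclear subunits of complexes I to V, 41 rose and 13 fell, with a median difference of 0.25, and of the 13 mitochondrial subunits none rose and 11 fell. Over all genes tested, 32.6% were higher and 30.9% lower, and the counts of single complexes below are to be read against these shares. In complex I, 17 of 36 nuclear subunits rose and 7 fell, with Ndufs5 (0.79, adjusted p = 1.3e-08) and Ndufb8 (0.56, adjusted p = 6.2e-07) higher and Ndufv2 (-0.54, adjusted p = 1.2e-05) and Ndufa7 (-0.74, adjusted p = 3.3e-05) lower. In complex II, which has no mitochondrially encoded subunit, 2 of 4 rose, Sdha (0.43, adjusted p = 1.1e-05) and Sdhb (0.32, adjusted p = 0.00068). In complex III 7 of 9 rose and none fell, with Cyc1 (0.83, adjusted p = 1.8e-07) and Uqcr10 (0.58, adjusted p = 1e-06) first, beside mt-Cytb at -0.03. In complex IV 8 of 11 rose, among them Cox7b (0.65, adjusted p = 1e-06) and Cox7c (0.78, adjusted p = 3e-06), and Cox4i1 fell (-0.18, adjusted p = 0.0098). In complex V 7 of 16 rose and 5 fell, with Atp5k (0.73, adjusted p = 5.5e-05) and Atp5md (0.83, adjusted p = 0.00019) higher and Atp5o (-0.48, adjusted p = 3e-06) and Atp5a1 (-0.32, adjusted p = 0.00039) lower. The difference between nuclear and mitochondrial subunits was not tested, and the counts describe these libraries.

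**Figure D5:**
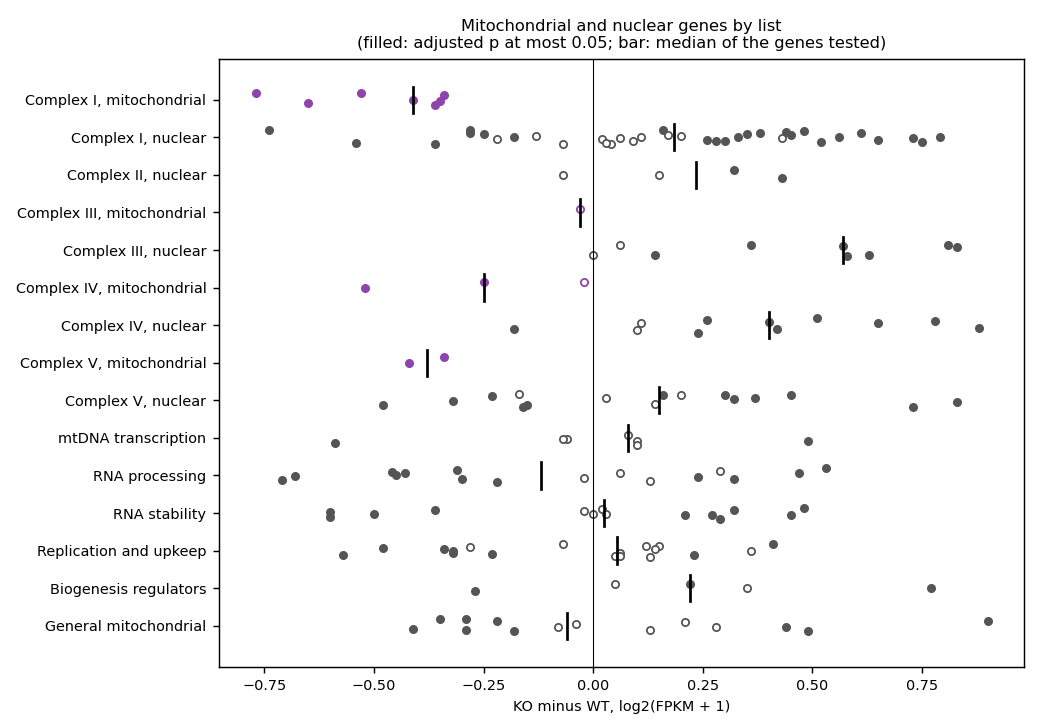
Difference of KO minus WT in log2(FPKM + 1) for each tested gene, by list, with the median of each list as a bar; filled points passed an adjusted p of 0.05. Mitochondrial messengers of complexes I, III, IV and V, in purple, lie at or below 0, with medians of -0.41, -0.03, -0.25 and -0.38, while the medians of the nuclear subunits of these complexes lie at 0.19, 0.57, 0.40 and 0.15. Under quantile normalization mt-Co2, mt-Cytb and mt-Nd5 lie above 0.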

How the data were processed

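Messenger RNA had been selected with oligo(dT), marked for strand with dUTP and sequenced in pairs, per the labels' protocols. Named in the submitters' processing notes, without roles, are the build mm9 and the tools StringTie 1.3.4d, HISAT2 2.0.4, cutadapt 1.9, edgeR and DESeq2. The deposited values are FPKM computed by the authors, with 2 decimals, for 29462 genes. Beside them stand the authors' deposited p-value, q-value and ratio of WT over KO, as such and as log2. No read counts were used, and the depth in reads is unknown. No libraries were duplicates, since in the closest pair 2.35% of tested genes had values within 0.01 FPKM.

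log2(FPKM + 1) was compared between 6 KO and 6 WT libraries, grouped by the genotype in their labels, in limma 3.58.1 (R 4.3.3), letting the variance follow the mean level and using no covariate. Genes needed 1 FPKM or more in 6 or more of 12 libraries, and the 11831 that met this were tested, two-sided, with Benjamini-Hochberg adjustment over all of them at 0.05. Differences on this scale understate the change of low genes. Genes below that level were compared by an exact permutation test, adjusted over all 17229 of them above 0. Scripts were tested on simulated data. Copies were sought among GENCODE M21 transcripts (GRCm38) with BLAST 2.17.0+ in Python 3.11.15, and all coordinates are of that build, not of the mm9 named in the notes. The members and the gene lists were chosen with earlier results of these data known. Every mitochondrial messenger and ribosomal RNA gene was named, transfer RNA genes with a mean of at least 1 FPKM or an exact p under 0.05 at least, and of each nuclear list the 2 called genes with the smallest p in each direction, beside Polrmt, Tfam, Tfb2m, Lrpprc, Slirp and Mtpap. Alternatives changed the pseudocount, the filter, the scaling, the variance model, the test and the libraries.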

Additional observations from a re-analysis of the deposited data

Results flagged for a closer look

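In 8 of 74 groups of 6 libraries, 1 library lay far from the other 5, and each time it was KO replicate 5 or 6. Chance gives about 1 such group in 20 where groups are independent. These groups are not, since all 37 genes were measured in the same 12 libraries, so the count cannot be set against that rate. The gap was examined with Dixon's ratio for each of the 37 genes in each genotype. KO replicate 6 was far below the other KO libraries for mt-Nd1 (1871.48 FPKM, against 2383.1 to 2561.69), mt-Co1 (4186.69 FPKM, against 5625.06 to 6414.59), mt-Ts1 (198.12 FPKM, against 279.66 to 326.53) and mt-Ta (20.95 FPKM, against 36.04 to 42.69). It was far above them for mt-Tt (20.92 FPKM, against 11.3 to 14.83). KO replicate 5 was far above the other KO libraries for mt-Rnr2 (263.75 FPKM, against 233.48 to 238.86) and mt-Nd3 (538.28 FPKM, against 337.34 to 391.14), and far below them for mt-Tl2 (5.37 FPKM, against 12.52 to 15.16).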

How the results depend on the processing

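Over the alternatives, 772 of 845 values for the 34 tested genes kept their direction and side of the threshold. Over all genes tested 7515 passed, and 4775 with a filter of 5 FPKM, where fewer genes were tested. With that filter the calls were 1 for transcription, 3 for RNA processing, 4 for RNA stability and 3 for replication and upkeep. Quantile normalization gave 7 called messengers (5 lower and 2 higher), against 11, and split all calls into 3493 higher and 4101 lower, against 3858 and 3657. The cause was not tested. Complex II nuclear subunits had 4 calls with library weights and with KO replicates 1 to 4 only. Directions turned with quantile normalization for mt-Nd5 (0.11), mt-Cytb (0.15), mt-Co2 (0.24) and mt-Ta (-0.03), and with TPM rescaling for mt-Co2 (0.0025) and mt-Rnr1 (0.0018). With library weights they turned for mt-Cytb (0.11), mt-Co2 (0.07), mt-Tn (0.07), mt-Tr (0.12), mt-Ts2 (-0.11) and mt-Ty (0.14), and with KO replicates 1 to 4 only for mt-Cytb (0.12), mt-Co2 (0.08), mt-Ti (-0.01), mt-Tn (0.06), mt-Tr (0.08), mt-Ts2 (-0.20) and mt-Ty (0.01). The exact rank-sum test over 12 libraries gave adjusted p of 0.45 for mt-Cytb, 0.64 for mt-Co2 and 0.95 for mt-Tn, with the ranks pointing up. With 1 library left out in turn, differences took both signs for mt-Cytb (-0.07 to 0.04), mt-Co2 (-0.05 to 0.03), mt-Rnr1 (-0.12 to 0.04), mt-Tn (-0.14 to 0.08), mt-Tr (-0.11 to 0.03), mt-Ts2 (-0.17 to 0.35) and mt-Ty (-0.09 to 0.06), none of which passed in the full comparison. With 1 library left out, the messengers called were 10 to 11 and all genes called 7121 to 8105. Without a filter mt-Co1, mt-Atp6, mt-Atp8 and mt-Ts1 no longer passed. Same-numbered KO and WT libraries did not deviate together (correlations of -0.273 to -0.0582), so the numbers do not pair them. With the replicate block 6959 genes and 10 messengers passed, and mt-Co1, mt-Ts1 and mt-Tt did not, and 0 libraries correlated best with their own number. The unknown depth limits what can be said of transfer RNA genes near 1 FPKM.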
